A study of Mus musculus with 4 samples.

Results

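Red cell genes were followed in whole liver RNA of male mice, through 9 listed genes: Hba-a1, Hbb-bt, Alas2, Slc4a1, Car2, Epb42, Klf1, Ahsp and Icam4. Members were the non-control probes whose RefSeq transcript belongs to a listed gene, which gave 10 probes in 28 spots per array for 8 of the 9 genes, of 56605 probes in all, 33767 of which could be named for 23462 genes. No accession was paired with Ahsp in the gene table, so it was not analysed here. Each of 4 groups was represented by 1 Agilent array: naturally aged mice (control), aged mice made a model of type 2 diabetes (diabetic), such diabetic mice given metformin, a glucose-lowering biguanide (metformin), and such mice given metformin with astragalus polysaccharide, a carbohydrate fraction of Astragalus root (combination). Old age was thus common to all groups, and the diabetic model to all but the control. The sources used here give no strain, age in months, dose or way of inducing diabetes, nor whether RNA of several mice was pooled, and the 60 d of the sample titles has no stated starting point. With 1 array per group no test between groups is possible, no p-value is given, and every difference is one between single arrays, whose number limits its precision.

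Red cells carry oxygen on haemoglobin, a tetramer of alpha- and beta-globin chains that each hold a haem group. Erythroblasts, their nucleated precursors, switch on globin, haem synthesis and membrane genes together under the transcription factors GATA1 and KLF1, and then lose the nucleus. Fetal liver is a site of this process. In adult mice it runs in bone marrow and spleen, and red cells that reach the liver in blood still hold some globin mRNA as reticulocytes.

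The 250 bases before the RefSeq start site (GRCm38.p6) are shown for 4 members that differed from one another in the results: Alas2 (highest on the control array), Hba-a1 (nearly level), Epb42 (seen on the control array alone) and Icam4 (highest on the diabetic array). Capitals mark GATA motifs, searched as AGATAA or TGATAA and as AGATAG or TGATAG, and CACCC-type motifs of the kind KLF1 binds, searched as CCNCNCCC, both on either strand and with overlapping matches kept.
Alas2, chrX:150547167-150547416, plus strand: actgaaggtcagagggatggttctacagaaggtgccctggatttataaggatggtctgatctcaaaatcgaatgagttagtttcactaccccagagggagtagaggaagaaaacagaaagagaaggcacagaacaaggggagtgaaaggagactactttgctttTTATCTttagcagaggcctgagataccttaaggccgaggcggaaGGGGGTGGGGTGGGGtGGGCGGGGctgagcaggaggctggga
Hba-a1, chr11:32283422-32283671, plus strand: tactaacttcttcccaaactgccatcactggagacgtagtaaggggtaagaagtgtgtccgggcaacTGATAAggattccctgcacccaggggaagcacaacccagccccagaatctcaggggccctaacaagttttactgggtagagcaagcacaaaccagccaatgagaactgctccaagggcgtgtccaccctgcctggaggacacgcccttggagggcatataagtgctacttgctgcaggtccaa
Epb42, chr2:121036878-121037127, minus strand: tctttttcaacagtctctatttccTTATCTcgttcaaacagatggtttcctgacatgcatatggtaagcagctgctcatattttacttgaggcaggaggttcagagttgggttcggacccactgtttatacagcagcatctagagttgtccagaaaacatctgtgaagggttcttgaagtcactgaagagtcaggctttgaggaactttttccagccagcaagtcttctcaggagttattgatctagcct
Icam4, chr9:21029182-21029431, plus strand: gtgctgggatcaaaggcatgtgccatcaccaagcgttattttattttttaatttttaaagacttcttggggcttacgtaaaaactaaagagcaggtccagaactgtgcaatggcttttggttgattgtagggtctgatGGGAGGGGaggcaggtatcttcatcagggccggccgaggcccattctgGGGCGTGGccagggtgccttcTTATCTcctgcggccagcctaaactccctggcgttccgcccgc
Such a window was held in the RefSeq table for 6 of the 8 members. A GATA match lay in 5 of these 6 and a CACCC-type match in 3, while 26.5% and 45.9% of all 32851 windows of 250 bases held one. The 4 CACCC-type matches before Alas2 lie in a single G-rich run and overlap, except for the last, which an unmarked t sets apart. A match describes letters only, and was not tested as a binding site.

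Levels are given as scaled signals: the background-corrected spot brightness divided by 1 constant per array, so that all arrays are in the units of the control array. Of the 59305 non-control spots, 2.18% to 5.35% per array were left out as outliers, and no spot was saturated. Among member spots the only one left out was 1 of the 10 spots of an Hba-a1 probe on the metformin array. A probe counted as measured where at least 50% of its spots were marked well above background, which took a scaled signal of about 97.3 to 118 or more. Over 24363 probes, pairs of arrays had correlations of 0.950 to 0.965, and 9 of 10 hepatocyte marker genes were above background on each of them. The remaining gene had outlier spots and so no value: Cps1 on the control, diabetic and metformin arrays, and Apoa1 on the combination array. The technical SD given beside a difference is pooled from probes spotted at least 5 times, in 3 brightness classes. For a member with 1 spot it is thus borrowed from other probes and is not its own spread. The dimmest class extended to signals as bright as Hbb-bt on the diabetic array (26486), so the SD is not matched to signals near background. Slc4a1, at 184 on the diabetic array, and Alas2, at 5269, were given the same SD of 0.13 against the control. The technical SD also leaves out variation between mice, RNA preparations and hybridizations. A difference of at least 2-fold (1 in log2) is counted as a call, and the median over all measured genes lay between -0.10 and 0.08 in log2 in the comparisons.

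On the diabetic array Slc4a1, Car2 and Alas2 were at least 2-fold lower than on the control array, the globins were lower by less, and Icam4 was higher. Both arrays measured 7 members: 3 (42.9%) were lower by 2-fold or more, against 4.32% of 13475 genes, and 1 (14.3%) was at least 2-fold higher, against 7.82%. The members and lists were chosen with earlier results of these data known. An excess over the share of all genes, here and in later counts, can therefore come from that choice and is no test. On both treated arrays Slc4a1 lay between the diabetic and the control value, and Icam4 lay at or below the control value. Fewer red cells or erythroblasts in a sample and less RNA per cell cannot be told apart in RNA of whole liver.

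The globin genes encode the haemoglobin chains. Hba-a1, an adult alpha-globin gene, was read by a pair of probes of 10 spots each. Its first probe gave scaled signals of 37950 for the control and 30297 for the diabetic, then 28804 with metformin and 34633 with the combination. Its second probe gave 49749, 39794, 42101 and 49675 in the same order, so both were lower on the diabetic than on the control array and differed in where the metformin array stood. The log2 SD over the spots of a probe was 0.03 to 0.08 on any array. Hba-a1 was thereby 1.25-fold lower in the diabetic than in the control (log2 difference -0.32, technical SD 0.02), level with the diabetic on the metformin array (0.004 in log2) and 1.19-fold above it on the combination array.

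Hbb-bt, an adult beta-globin gene, gave 35301 in the control, 26486 in the diabetic, 31707 with metformin and 33144 with the combination. It was lowest on the diabetic array, 1.33-fold under the control (-0.41, technical SD 0.12), and 1.20-fold and 1.25-fold above the diabetic on the metformin and combination arrays. Neither gene reached a 2-fold difference between any pair of arrays, and their 3 probes stood at or above the 96.8 percentile of their array. Hepatocyte markers, also bright, had a median of -0.27 over 9 genes in the diabetic against the control, from -1.19 (Fga) to 0.05 (Tat). The differences of Hba-a1 (-0.32) and Hbb-bt (-0.41) lay within that range, so a lower value there was not particular to globins. Near-identical alpha-globin genes, and near-identical beta-globin genes, can share signal on such probes. Hba-a2, the second adult alpha-globin gene, gave 35051, 28630, 27237 and 32744 in the same order of arrays, and embryonic Hba-x, Hbb-bh1 and Hbb-y were not well above background on any.

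Alas2 makes the erythroid form of the first enzyme of haem synthesis. Its scaled signal was 12082 in the control, 5269 in the diabetic, 7929 with metformin and 6422 with the combination, so the control array was highest and the diabetic lowest. It was 2.29-fold lower in the diabetic than in the control (-1.20, technical SD 0.13). In log2 the metformin array stood 0.59 and the combination array 0.29 above the diabetic, both under 2-fold. Alas2 was 1.52-fold and 1.88-fold under the control on them.

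Slc4a1, which encodes band 3, the chloride-bicarbonate exchanger and anchor of the red cell membrane, had the widest span of any member measured on all 4 arrays (4.33 in log2). It gave 3710 on the control and 184 on the diabetic array, with 670 under metformin and 604 under the combination. The diabetic array was 20.1-fold lower than the control (-4.33, technical SD 0.13), and only 0.0742% of genes had a more negative difference there. The diabetic value of 184 was not far above 107, the lowest signal above background on that array. Both treated arrays were above the diabetic, by 3.63-fold with metformin and 3.27-fold with the combination, and below the control, by 5.53-fold and 6.14-fold. The treated arrays differed from each other by -0.15 (combination against metformin), close to the technical SD of 0.13. That SD comes from a class extending to far brighter spots, so the spread at such dim signals was not tested.

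Epb42 encodes protein 4.2, which ties band 3 to the spectrin skeleton. Its probe gave 289.6 on the control array and was not well above background on the diabetic (22.7), metformin (78.2) and combination (28.0) arrays. Only bounds can be given, set against the lowest signal above background: Epb42 was at least 2.71-fold, 2.94-fold and 2.98-fold higher on the control array than on the diabetic, metformin and combination arrays.

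Icam4, a red cell adhesion molecule that binds integrins and carries the Landsteiner-Wiener blood group in humans, went against the other members. Icam4 gave 613 in the control, 3116 in the diabetic, 379.6 with metformin and 604 with the combination, so the diabetic array alone was high. The diabetic was 5.08-fold above the control (2.35, technical SD 0.13), a difference that 0.668% of genes exceeded. Against the diabetic array Icam4 was 8.21-fold lower with metformin and 5.16-fold lower with the combination. Only 0.036% and 0.517% of genes were further down in these comparisons. Icam4 rests on 1 probe of 1 spot, as do Alas2, Slc4a1, Car2, Epb42 and Hbb-bt.

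Car2 encodes carbonic anhydrase 2, the fast enzyme of carbon dioxide hydration in red cells, which bile duct cells also make. Its signal was 7189 in the control, 2696 in the diabetic, 6028 with metformin and 4592 with the combination. The diabetic was lowest, 2.67-fold under the control (-1.42, technical SD 0.13). Car2 was 2.24-fold above the diabetic with metformin and 1.70-fold with the combination. Bile duct markers, summed over 6 genes above background on all arrays, were 15111, 12649, 16833 and 10041 in scaled signal in the order of arrays used for Car2, and 1 of 7 was at least 2-fold lower in the diabetic than in the control (Epcam, -1.14). This sum was thus lower on the diabetic than on the control array, as Car2 was, but lowest on the combination array. Its largest part is Slc4a2 (6385 in the control). Spp1, the brightest bile duct marker, is outside the sum because it had no value on the metformin array. Spp1 gave 9365 in the control, 8712 in the diabetic and 12255 with the combination, so unlike the sum it was highest with the combination. The part of bile duct cells in the Car2 values was not tested.

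Klf1, the erythroid transcription factor that activates the beta-globin gene, followed another order. Its brighter probe read 3036 for control, 2272 for diabetic, 1325 for metformin and 3801 for combination, and its dimmer probe 282, 167, 113 and 265. Both probes placed the metformin array lowest, but they differed on whether the control or the combination array was highest. The mean over both differed by -0.59 in log2 between diabetic and control (technical SD 0.09), and was 1.59-fold lower with metformin than in the diabetic and 1.63-fold higher with the combination than in the diabetic. Klf1 was the sole member at least 2-fold apart between the treatments, 2.59-fold higher with the combination than with metformin alone, a difference that 0.571% of genes exceeded.

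**Figure D1:**
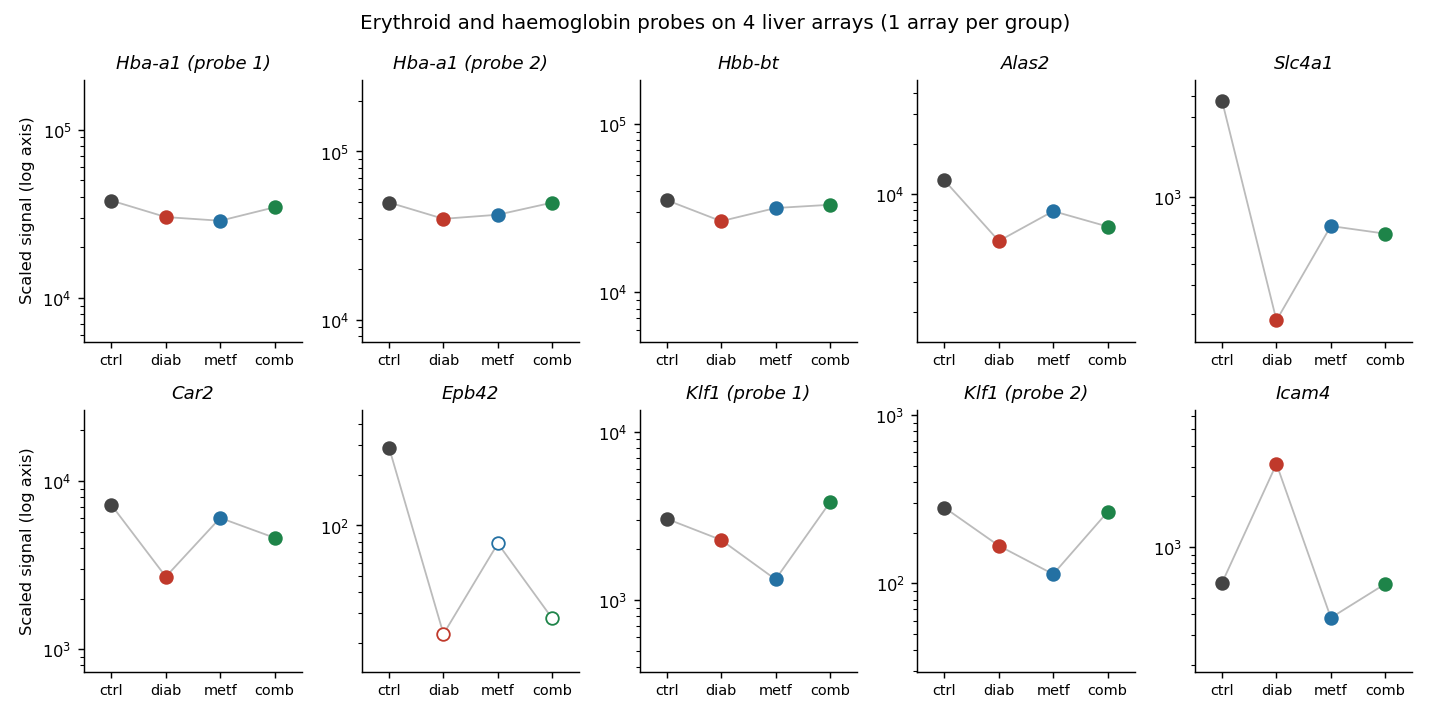
Scaled signal (log axis, in units of the control array, each panel spanning the same ratio) of the 10 member probes on the control (ctrl), diabetic (diab), metformin (metf) and combination (comb) arrays, 1 array per group. Open circles were not well above background. Slc4a1 runs from 3710 on the control to 184 on the diabetic array, Icam4 peaks at 3116 on the diabetic array and Hba-a1 is nearly level.

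Counted over members, 2 of 7 (28.6%) were at least 2-fold higher with metformin than in the diabetic, Slc4a1 and Car2, against 10.7% of 13900 genes. Icam4 was the 1 of 7 (14.3%) at least 2-fold lower, against 2.52%. With the combination, Slc4a1 was at least 2-fold above the diabetic (1 of 7, against 3.32% of 14108 genes) and Icam4 at least 2-fold below (1 of 7, against 6.78%). Both comparisons rest on 1 shared diabetic array and are given side by side, not as repeats of each other. Between combination and metformin, Klf1 was at least 2-fold higher (1 of 7, against 1.41% of 14363 genes) and no member at least 2-fold lower (against 12.0%). In either direction 10.1% of genes were at least 2-fold apart between combination and diabetic. Against the control, the treated arrays had 2 members at least 2-fold lower with metformin (Slc4a1 and Klf1, 2 of 7, against 3.12% of 13506 genes) and 1 with the combination (Slc4a1, 1 of 7, against 5.12% of 13845 genes). No member was at least 2-fold higher on them than on the control array (12.3% and 5.60% of genes were). The median difference of the 7 members was -0.59 in the diabetic against the control, 0.26 for metformin and 0.32 for the combination against the diabetic, and 0.06 between the treatments. Over all measured genes these medians were 0.03, 0.02, -0.03 and -0.10.

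**Figure D2:**
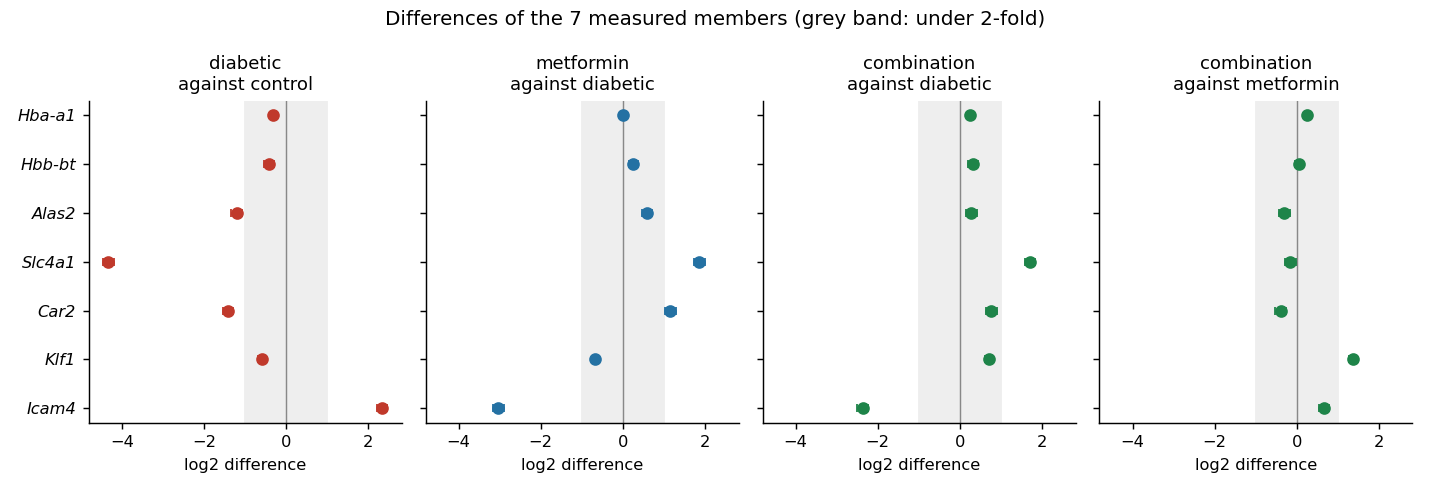
Log2 difference of the 7 members measured on both arrays in each of 4 comparisons. Bars are the technical SD from repeated spots, smaller than the point in places, and the grey band marks differences under 2-fold. Slc4a1 (-4.33) and Icam4 (2.35) lie furthest from 0 in the diabetic against the control, and on the opposite side of 0 in both treated groups against the diabetic. These comparisons share the diabetic array, so a high or low spot on it alone would give such opposite signs.

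The wider erythroid programme was read through 5 lists of 83 genes in all, 81 of which had a probe. Among haem synthesis genes all 15 were measured. Of these, 2 were at least 2-fold lower in the diabetic than in the control and none higher, and the list's median was -0.09. They were Tspo2, an erythroid translocator-protein paralogue (-1.35), and Alas2, and next came Alad (-0.67), which makes porphobilinogen. Neither treated array had a haem synthesis gene at least 2-fold above the diabetic. The combination had 1 of 15 at least 2-fold below it, near the share of all genes (6.78%): Uros (-1.16), which makes uroporphyrinogen III. With metformin the furthest were Alas2 (0.59), Tspo2 (0.55) and the mitochondrial carrier Slc25a38 (-0.42).

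Among red cell membrane genes 12 of 19 were measured in the diabetic and the control, with 3 at least 2-fold lower, 1 higher and a median of -0.36. The lower ones were Slc4a1, the Rhesus protein Rhd (-1.58) and the urea transporter Slc14a1 (-1.05), and the higher one was Icam4. Against the diabetic array, Slc4a1 and Icam4 were the only members of this list at least 2-fold apart with metformin (12 measured). With the combination (11 measured) they were joined by Xk, which partners the Kell protein (-1.61). Xk was also the one gene of this list at least 2-fold apart between the treatments (-1.23, combination against metformin, 1 of 11 lower against 12.0% of all genes).

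Among erythroid regulators 11 of 18 were measured in the diabetic and the control, with 2 at least 2-fold lower, 1 higher and a median of -0.66. Tal1 (-1.57), a partner of GATA1, and Nfe2 (-1.27), which drives globin and platelet genes, were lower, and Cited4 (1.43) was higher. With metformin 3 of 11 were at least 2-fold above the diabetic and none below, against 10.7% and 2.52% of all genes. The 3 were Nfe2 (2.05), the erythropoietin receptor gene Epor (2.05) and Lyl1 (1.08). With the combination 2 of 11 were at least 2-fold above the diabetic, Nfe2 (1.64) and Epor (1.29), and 1 was below, Cited4 (-1.59). Between combination and metformin Klf1 was higher (1 of 12, against 1.41% of all genes). Cited4 (-1.93) and Lyl1 (-1.12) were lower (2 of 12, against 12.0%). Nfe2, Tal1, Lyl1 and Epor are also transcribed in other blood, endothelial or megakaryocytic cells.

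Of the red cell enzymes and late maturation genes 12 of 17 were measured in the diabetic and the control, with 3 at least 2-fold lower, none higher and a median of -0.30. They were Car2, Car1 (-1.05), another carbonic anhydrase gene, and Tent5c (-1.07), a poly(A) polymerase gene. Of 13 measured, Car2 was the 1 at least 2-fold higher with metformin than in the diabetic. With the combination none of 13 was 2-fold apart from the diabetic, and Slc43a1 (0.86), Car1 (0.78) and Car2 (0.77) were furthest from 0. Tent5c (1.37) and the amino acid transporter Slc43a1 (1.06) were at least 2-fold higher with the combination than with metformin. Of the list of globins and their partners, only 4 of 14 were measured in the diabetic and the control, 1 of them Hbs1l (0.43), which is no globin, and none was 2-fold apart. Hbq1b, a theta-globin gene measured on the control, metformin and combination arrays, was lower by 2-fold or more with the combination than in the control (-1.02). The beta-globin genes Hbb-b1 and Hbb-b2 had outlier spots on 3 arrays each and are not compared.

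Several erythroid genes were seen on the control array alone, a count chosen after the values were seen. Of 62 listed erythroid genes that had a value on all 4 arrays and were above background on at least 1, 5 (8.06%) were above background on the control array and on no other, against 0.969% of 15999 genes. None was above background on only the diabetic (1.14% of all genes), only the metformin (5.88%) or only the combination array (1.14%). The 5 entered the 62 through the control array alone, so these shares describe single arrays and were not tested. The 5 were Epb42, Kel (the Kell blood group protease), Gata1 (the master erythroid transcription factor), Trim10 (a late erythroid gene) and Bcl11a (a repressor of fetal-stage globin genes, which B cells also use).

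Kel was the brightest of them, with a mean of 423 over its probes on the control array against 29.6 for diabetic, 42.2 for metformin and 23.2 for combination. Trim10 gave 361 against 21.5, 33.1 and 23.2. Gata1 gave 196 against 25.9, 28.2 and 22.3, and Bcl11a gave 173 against 26.6, 34.2 and 22.3. None of these off-control values was well above background, and the control values lay only a little above it, between 173 and 423. The bounds were therefore small: control over diabetic was at least 1.62-fold for Bcl11a, 1.83-fold for Gata1, 3.38-fold for Trim10 and 3.96-fold for Kel. Against the diabetic and the metformin array 3 of the 5 bounds reached 2-fold, and against the combination array 4. Bcl11a counted through 1 probe. Its other probes, 70.8 and 27.7 on the control array, were not well above background on any array. Sptb, Rhag and Tmod1 of the membrane list were not well above background on any array.

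**Figure D3:**
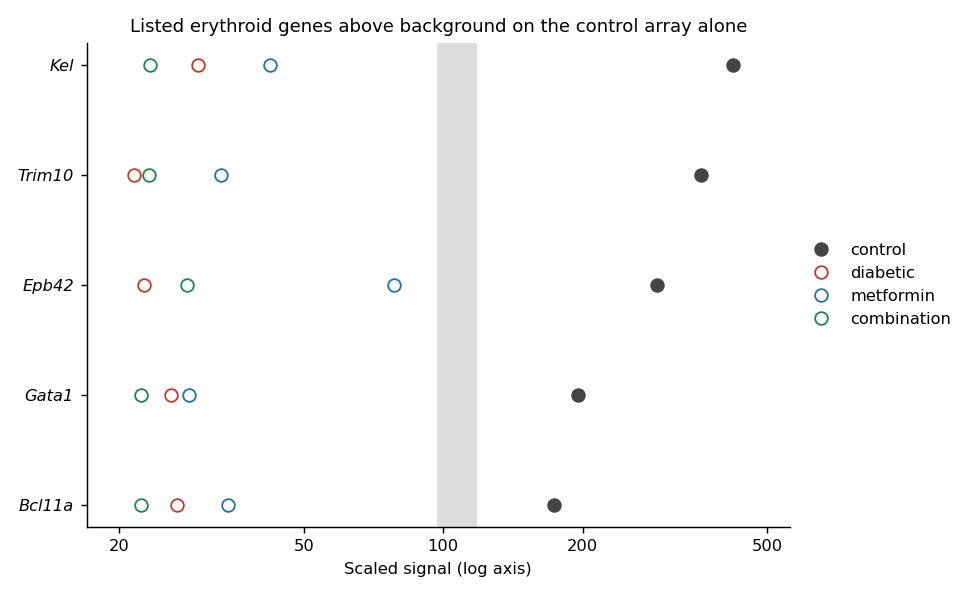
Scaled signal (log axis, in units of the control array) of the 5 listed erythroid genes that were above background (filled circles) for the control and below it for all other groups (open circles). The grey band spans the lowest above-background signals of the 4 arrays, 97.3 to 118. Control values run from 173 for Bcl11a to 423 for Kel.

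Markers of other cells differed between the same arrays, and their part in the erythroid values was not tested. Acinar pancreas genes were lower in the diabetic than in the control in 10 of 10 cases, 9 of them 2-fold or more, and their median was -4.13. Summed over the 4 above background on every array, they were 101005 in the control, 26215 in the diabetic, 38075 with metformin and 14255 with the combination, and Ptf1a was not above background on any. Most of the combination sum is Cela1 (12806). Acinar genes not above background with the combination are outside these sums, such as Prss2 (37148 in the control, 47.8 with the combination) and Try4 (27781 and 20.2). Lymphocyte markers were lower in 7 of 7 cases, 5 of them 2-fold or more, and their median was -1.46. Their sums over 7 genes were 6362, 1927, 12914 and 3443, and Cd79a and Klrb1c were not above background on any array. Slc4a1 shared with both sets a diabetic value below the control and a metformin value above the diabetic. On the combination array acinar genes were lower than on the diabetic in 5 of 5 cases (median -2.68), lymphocyte markers were higher in 6 of 7 (median 0.97) and Slc4a1 was higher.

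Other blood cell markers had medians nearer 0 in the diabetic against the control. Platelet markers had a median of -0.27 in the diabetic against the control over 8 genes, with 1 at least 2-fold lower (Ppbp, -1.35), and sums over 7 genes of 18346, 13230, 24896 and 20377. Clec1b (11178 in the control) and Vwf (4014) make up most of the platelet sum. Gp1ba was not above background on any array. With the combination 3 of 8 platelet markers were at least 2-fold above the diabetic (Pf4 1.67, Treml1 1.25, Ppbp 1.06). Neutrophil markers had a median of -0.44 over 9 genes, with 2 at least 2-fold lower (S100a9 -1.58, Retnlg -1.55) and 1 higher (Elane 1.46), and sums over 6 genes of 130970, 113484, 121155 and 102018. Most of the neutrophil sum is Lcn2 (28921 and 45099 on its probes in the control) and Csf3r (38107), which differed little between arrays. S100a9, the next brightest in it, gave 12230, 4102, 7549 and 2575. In the combination against the control the neutrophil median was -1.52 with 5 of 8 at least 2-fold lower, and the lymphocyte median -0.79 with 2 of 7. Of all genes 5.12% were at least 2-fold lower in that comparison. Blood progenitor markers had a median of 0.44 over 6 genes, with Meis1 (1.40) at least 2-fold higher and none lower. Hepatocyte markers had a median of -0.27 over 9 genes, with Fga (-1.19) at least 2-fold lower.

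**Figure D4:**
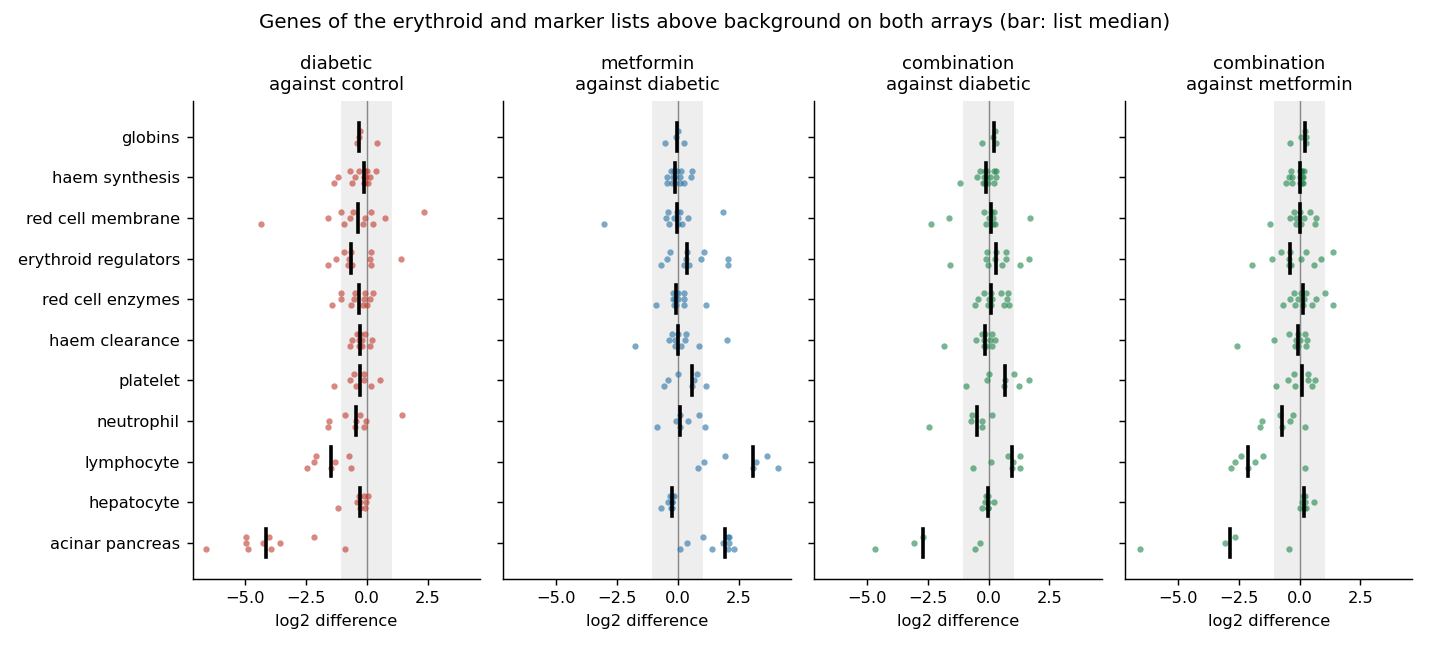
Log2 differences in 4 comparisons of the genes above background on both arrays, 1 point per gene, by list, with the list median as a black bar and differences under 2-fold in the grey band. Erythroid lists centre between -0.66 and -0.09 in the diabetic against the control. Haem clearance (-0.26), platelet (-0.27), neutrophil (-0.44) and hepatocyte (-0.27) lists centre within the same range. Lymphocyte (-1.46) and acinar pancreas genes (-4.13) lie further down there.

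Genes with the most similar profile over the 4 arrays were picked by the smallest root mean square difference of centred log2 levels among 12701 other genes, with all points sharing the same 4 hybridizations. For Alas2 these were Mxd1 (0.03), Slx4 (0.05) and Uxs1 (0.06), and for Car2 they were Abca8b (0.02), Ythdc2 (0.03) and Krt81 (0.04). The wide swings of Slc4a1 and Icam4 were matched less closely. The nearest to Slc4a1 were Tiparp (0.33), Cish (0.39) and Hectd2 (0.41), and to Icam4 Vamp1 (0.24), Ccdc151 (0.40) and Fam228b (0.41). Klf1 was nearest to Olfr457 (0.10), Sdr9c7 (0.11) and Maco1 (0.15). No listed erythroid gene was among these nearest genes.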

How the data were processed

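Total liver RNA was labelled with Cy5 and hybridized to 1-colour Agilent arrays, per the labels' protocols. The deposited scanner files hold spot intensities, already background-corrected, made with Feature Extraction 11.5.1.1 per the file headers, while the submitters' processing notes name version 10.7. The authors' deposited value table holds log2 values, normalized in GeneSpring per the labels by a method not given in the sources used here. Its columns share a median of 7.84, correlate with the scanner values at 0.999 to 1.00, and served as an alternative.

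Non-uniform and population outlier spots were dropped. Log2 processed signals had the array's 75th percentile (signals of 1560 for control, 1678 for diabetic, 1961 for metformin and 2167 for combination) subtracted, then the median difference from the control array over probes measured on all 4 (-0.01, -0.09 and -0.19 for the other arrays). Differences were averaged over the probes of a gene that exceeded background on the pair of arrays. Bounds use the lowest signal above background.

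Names came from RefSeq transcript accessions (GRCm38.p6 table). The grid was built on an older mouse assembly, so no probe coordinates are given. The members and lists were chosen with earlier results of these data known, and some listed genes are not reported here and were left out of the lists' counts. All members are named, with the 3 genes furthest from 0 in a list (examples of these are given), and 3 nearest genes for members spanning at least 1 in log2. Scaling was tested on simulated data. Python 3.11.15 with pandas 2.3.3 was used, and limma 3.58.1 for normexp.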

Additional observations from a re-analysis of the deposited data

How the results depend on the processing

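The 10 alternatives were 3 other array scales, quantile normalization, outlier spots kept, no filter on background, a filter on all 4 arrays, medians over probes, the authors' value table and, chosen after seeing the data, normexp on median signals. The planned normexp on mean signals was not run, since the scanner files used here hold median and not mean signals. The number of members at least 2-fold apart kept its value in the 4 comparisons not made of a treated array against the control under all of them, except without the filter on background, where Epb42 was added: 5 for the diabetic against the control, 4 for metformin against the diabetic and 2 in place of 1 for combination against metformin. Of 42 member differences (6 pairs of arrays), 13 were past 2-fold and none of these changed sign. Klf1 in metformin against control (-1.26) was -0.89 on the spike-in scale. Of 29 under 2-fold, 27 stayed there. The exceptions, which change the number for treated arrays against the control, are Icam4 with metformin against the control, which reached -1.004, and Alas2 with the combination against the control, which reached -1.10. In all, 10 small differences changed sign in some alternative: Hba-a1 in metformin against diabetic (-0.07 to 0.25), Hbb-bt (-0.14 to 0.14) and Slc4a1 (-0.35 to 0.06) in combination against metformin, Hba-a1, Hbb-bt and Car2 in metformin against control, and Hba-a1, Hbb-bt, Klf1 and Icam4 in combination against control. The share of all genes at least 2-fold higher and lower moved with the scale. For the combination against the diabetic it was 3.32% and 6.78%, and 2.25% and 9.41% with the 75th percentile alone. For the diabetic against the control it was 7.82% and 4.32%, and 6.10% and 5.14% with the authors' values. For metformin against the diabetic it was 10.7% and 2.52%, and 15.6% and 1.44% on the scale of 6 spike-in probes, and for combination against metformin 1.41% and 12.0%, and 2.62% and 9.16% with the authors' values. No paired analysis was possible because each group has 1 array. Dim genes such as Gata1 and Epb42 sit near background, which limits what their bounds can show.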

Other observations

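Genes that clear haemoglobin and haem in liver were measured in 11 of 11 cases on all arrays. In the diabetic against the control none was at least 2-fold apart, with a median of -0.26 and Spic (-0.70), a transcription factor of red cell-clearing macrophages, Cd163 (-0.62), the haemoglobin-haptoglobin scavenger receptor, and Hmox1 (-0.40), haem oxygenase 1, furthest from 0. With metformin Spic was 2.03 higher and Cd163 1.77 lower than in the diabetic in log2, and Hmox1 was 0.86 higher. With the combination Cd163 was 1.81 lower than in the diabetic, and combination minus metformin was -2.57 for Spic and -1.05 for Hmox1.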
